A study of Mus musculus with 9 samples.

Results

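The genes described here build cholesterol and fatty acids, and they were measured by RNA sequencing in B16 cells, an established mouse melanoma line. The 36 members were listed by name from their known roles, with no measured value used in the choice, although earlier results of these data were known when the list was drawn up. They were 36 of 22972 gene names in the tables. All 36 had a mean of at least 1 FPKM (fragments per unit length of transcript, scaled to the mapped fragments of the library) over the libraries and were among the 10109 genes tested.

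The 9 libraries fell into 3 groups of 3, each from wild-type (WT) B16 cells grown on a flexible silicone (PDMS) film and harvested at day 3. CTL cells were the untreated control, and MS cells were mechanically stimulated by cyclic straining of the film for 72 h. Blebb cells were kept for 72 h in medium with 100 ng/mL blebbistatin, an inhibitor of myosin. The sample labels give blebbistatin as the whole treatment of the Blebb group, whereas the study's text describes an inhibitor group that was also strained, so whether the film moved under these cells cannot be told apart here. All groups came from the same cell line. The labels call the replicates parallel experiments and say nothing more of separate cultures, so p-values measure only the spread between these samples, which may be technical.

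Cells make cholesterol from acetyl-CoA through mevalonate, isoprenoid diphosphates, squalene and a chain of sterol intermediates. Fatty acids start from the same acetyl-CoA, which is carboxylated, condensed by fatty acid synthase, then elongated and desaturated. Most of these genes are known targets of the SREBP transcription factors, which the SCAP protein escorts from the endoplasmic reticulum to the Golgi when sterols are scarce and which the INSIG proteins hold back when sterols are plentiful.

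Before the members, the libraries themselves were compared. The FPKM of all genes summed to between 439939 and 484093 per library, 9529 to 10388 genes reached 1 FPKM, and the number of reads behind a value is unknown from these files. No pair of libraries held identical values. Correlation of log2 values across genes was 0.939 to 0.991 for the 9 pairs within a group and 0.920 to 0.995 for the 27 pairs between groups, and these ranges overlapped. Libraries CTL 1 and Blebb 2 stood apart on the first principal component, at -42.1 and -43.9 against -10.0 (MS 3), -7.29 (Blebb 1) and 6.07 to 35.8 for the rest; this component held 70.4% of the variance. The melanocyte markers were present in every library (summed level 8303 to 12933 FPKM in CTL, 7444 to 11974 in MS and 8132 to 11697 in Blebb, 7 of 7 tested), as the label of the line says. Markers of fibroblasts summed to at most 0.567 FPKM with Dcn and Lum at 0, those of keratinocytes to at most 0.0314 FPKM with Krt1, Krt10, Epcam and Trp63 at 0, and those of macrophages to at most 4.32 FPKM with Ptprc at 0. In bulk samples such as these, fewer cells of a type and less RNA per cell cannot be told apart.

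Upstream sequences of 3 mevalonate and sterol genes are shown first, to set the letters beside the values. Hmgcs1 held the sterol motif, Sc5d held an E-box and a CCAAT box, and Acat2, the member whose Blebb libraries lay below all the rest, held none of the motifs searched. Each line gives the bases before the RefSeq start of transcription (GRCm38.p6), 5′ to 3′ on the gene's own strand, and ends before the first base that GENCODE M21 puts in an exon. Capitals mark TCACNCCAC, the sterol regulatory element motif that SREBP binds, CCAAT, the box bound by the NF-Y complex, which is known to act beside SREBP, and the E-box CACGTG. On the opposite strand the CCAAT box reads as ATTGG here. The Hmgcs1 stretch lies at chr13:119690101-119690350 on the plus strand, the Sc5d stretch at chr9:42264301-42264550 on the minus strand and the Acat2 stretch at chr17:12960748-12960975 on the minus strand.
Hmgcs1: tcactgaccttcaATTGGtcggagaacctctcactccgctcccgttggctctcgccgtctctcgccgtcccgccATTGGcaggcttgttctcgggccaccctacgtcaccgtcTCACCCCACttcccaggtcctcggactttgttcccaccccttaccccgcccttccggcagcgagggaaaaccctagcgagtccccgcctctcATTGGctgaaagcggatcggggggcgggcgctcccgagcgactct
Sc5d: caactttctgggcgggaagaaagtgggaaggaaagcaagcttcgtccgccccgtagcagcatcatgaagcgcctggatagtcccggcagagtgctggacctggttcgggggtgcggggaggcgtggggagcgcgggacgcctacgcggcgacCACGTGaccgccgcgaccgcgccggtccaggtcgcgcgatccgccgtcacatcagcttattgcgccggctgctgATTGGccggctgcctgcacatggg
Acat2: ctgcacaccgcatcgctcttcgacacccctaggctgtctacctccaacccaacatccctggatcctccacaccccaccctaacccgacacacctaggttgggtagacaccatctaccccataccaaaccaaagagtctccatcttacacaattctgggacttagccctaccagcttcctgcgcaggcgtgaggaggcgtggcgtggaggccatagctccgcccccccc
Hmgcs1 carried the sterol element 137 bases before its start, with CCAAT boxes whose first bases lay 237, 176 and 45 bases before it and another just past the start. Sc5d had an E-box 98 bases and a CCAAT box 24 bases before its start.

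RefSeq windows of 300 bases (250 before the start to 50 after it) were matched by symbol for 29 of the 36 members; Fdps, Fdft1, Sqle, Scd1, Scd2, Fads1 and Stard4 were not matched. Both strands were searched, and none of the 3 motifs contains another. A member or symbol was counted when any of its windows held the motif. CCAAT was found for 23 of the 29 members (79.3%), against 41.1% of 27025 gene symbols and 37.4% of all 32851 windows. The exact letters TCACNCCAC were found for 1 of 29 (3.45%, Hmgcs1), against 1.44% of symbols and 1.24% of windows. The E-box CACGTG was found for 5 of 29 (17.2%), namely Scap, Insig1, Hsd17b7, Sc5d and Dhcr7, against 8.09% of symbols and 7.15% of windows. A match is a description of the letters and not a measured binding site.

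The members spanned a wide range of levels. Per length, their means ran from 1.74 FPKM for Elovl6 to 511 FPKM for Scd2 with a median of 36.3, whereas the median of all genes tested was 10.4 FPKM. Means of at least 100 FPKM were seen for 5 members, of 10 to 100 for 24 and of under 10 for 7. Each listed gene was thus detected, with desaturation (Scd2), farnesyl diphosphate synthesis (Fdps), fatty acid synthesis (Fasn), citrate cleavage (Acly) and the desaturase Fads2 at the top.

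To ask whether cyclic straining or blebbistatin changed these genes, each pair of groups was compared with limma on log2(FPKM + 1), with p-values adjusted over all 10109 genes by the Benjamini-Hochberg method. In the results, no member passed an adjusted p of 0.05 in any of the 3 comparisons, where 0.0% of all genes passed in each. The fold changes given below are on the log2(FPKM + 1) scale, which understates the change of low genes, and the 3 comparisons share their groups. With 3 against 3 libraries an exact permutation test of a single gene cannot go below p = 0.1.

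**Figure D1:**
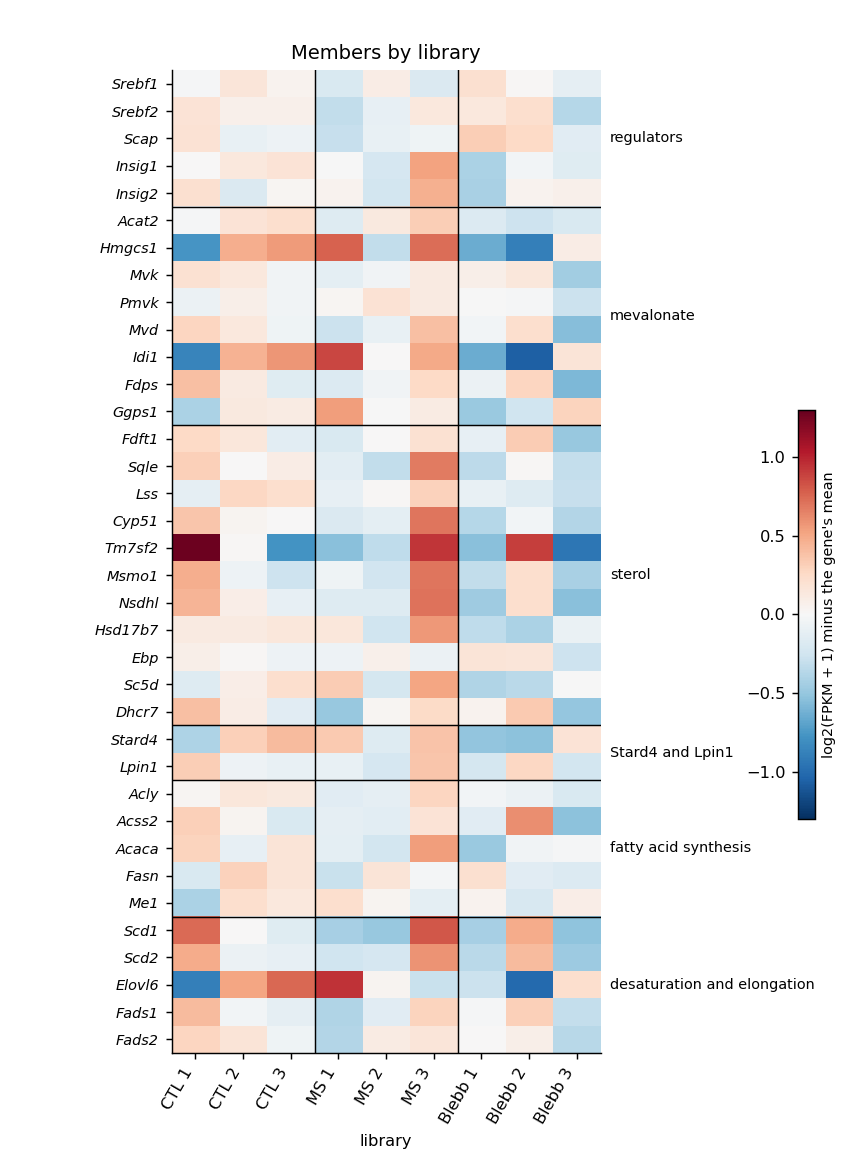
Heat map of the 36 members (rows, by role) in the 9 libraries (columns), coloured by log2(FPKM + 1) minus the gene's mean over the libraries (red higher, blue lower). Columns of the same group differ: MS 3 is red for most of the sterol rows, Blebb 3 is blue for them, and Tm7sf2 is deep red in CTL 1, MS 3 and Blebb 2.

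The regulators came first. Srebf1, which encodes the SREBP form best known for fatty acid genes, was 17.3, 19.7 and 18.2 FPKM in the CTL libraries (replicates 1, 2 and 3, the order kept throughout), 15.2, 18.8 and 15.3 in MS and 20.4, 17.8 and 16.2 in Blebb. Srebf2, which encodes the form best known for cholesterol genes, was 90.5, 83.4 and 83.6 FPKM in CTL, 63.9, 73.8 and 87.7 in MS and 87.7, 92.6 and 61.5 in Blebb. For both genes the 3 groups overlapped, and the log2 fold changes of MS against CTL were -0.16 (SE 0.14) for Srebf1 and -0.20 (SE 0.18) for Srebf2, each with an adjusted p of 1.00 in limma. Blebb against MS gave 0.14 (SE 0.14) and 0.090 (SE 0.18), and Blebb against CTL gave -0.025 (SE 0.14, and 0.0064 with median-of-ratios scaling) and -0.11 (SE 0.18). The RNA of neither gene thus differed beyond the spread between replicates, and the SREBP proteins were not measured here. Srebf1 shares exon bases with Rai1 on the opposite strand and with Mir6922, and the files do not say whether reads were counted by strand.

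Scap, the escort, was 60.4, 49.6 and 50.5 FPKM in CTL, 42.9, 49.6 and 50.8 in MS and 66.6, 63.8 and 47.6 in Blebb. It was the member with the highest fold in both Blebb comparisons, 0.30 (SE 0.16, adjusted p = 0.897 in limma) against MS and 0.14 (SE 0.16) against CTL. Blebb 3 lay within the range of the MS libraries and below the CTL libraries, so the groups overlapped. Insig1, which retains SCAP and is itself a sensitive SREBP target, was 38.6, 42.5 and 43.9 FPKM in CTL, 38.5, 32.9 and 55.8 in MS and 28.8, 37.5 and 34.4 in Blebb. The Blebb libraries lay below all CTL libraries, with a log2 fold change of -0.31 (SE 0.19, adjusted p = 1.00 in limma), but overlapped with MS (-0.30, SE 0.19), and MS against CTL was -0.0076 (SE 0.19). Insig2, the paralog of Insig1, ranged from 12.3 to 23.6 FPKM with overlap between all groups.

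The mevalonate branch held the members with the widest differences between groups on the log2 scale. Hmgcs1, the cytosolic HMG-CoA synthase, was 8.34, 21.1 and 22.3 FPKM in CTL, 26.2, 11.8 and 25.4 in MS and 9.16, 7.63 and 16.1 in Blebb. Idi1, which isomerises isopentenyl diphosphate, was 3.30, 9.65 and 10.6 FPKM in CTL, 13.2, 6.81 and 9.98 in MS and 3.99, 2.73 and 7.78 in Blebb. In both genes CTL 1 sat with Blebb 1 and Blebb 2 at the bottom, and Blebb 3 lay above MS 2, so every pair of groups overlapped.

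Blebb against MS gave the lowest folds of any member here, -0.96 (SE 0.44, adjusted p = 0.897 in limma) for Idi1 and -0.87 (SE 0.43, adjusted p = 0.897 in limma) for Hmgcs1. Blebb against CTL gave -0.57 (SE 0.44) and -0.56 (SE 0.43). MS against CTL gave the highest folds of that comparison, 0.40 (SE 0.44) for Idi1 and 0.31 (SE 0.43) for Hmgcs1, and these turned to -0.060 and -0.12 without CTL 1. Hmgcs1 and Idi1 thus tracked each other across the libraries, but neither difference between groups passed the test.

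Acat2, the cytosolic thiolase that joins acetyl-CoA units at the entry to the pathway, gave the most even shift. It was 36.8, 42.1 and 43.4 FPKM in CTL, 32.9, 40.8 and 46.5 in MS and 32.8, 30.6 and 32.3 in Blebb, with group means of 40.7 ± 3.50, 40.1 ± 6.83 and 31.9 ± 1.16 FPKM (SD, n = 3). All 3 Blebb libraries lay below each of the other 6, although Blebb 1 and MS 1 differed only in the third digit. The log2 fold change of Blebb against CTL was -0.34 (SE 0.14), with an unadjusted p of 0.0413 in limma and an adjusted p of 1.00. Leaving out each library in turn kept it between -0.41 and -0.29.

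The other mevalonate genes varied less than Hmgcs1 and Idi1. Mvk, mevalonate kinase, ranged from 25.1 to 39.9 FPKM, Mvd, which decarboxylates mevalonate diphosphate, from 16.1 to 31.9 FPKM, and Fdps, farnesyl diphosphate synthase, from 249.6 to 492 FPKM, each lowest in Blebb 3. Pmvk, phosphomevalonate kinase, was 17.0, 19.2 and 18.2 FPKM in MS and 16.7, 16.5 and 13.6 in Blebb, so these groups did not overlap, while CTL at 15.8, 17.6 and 16.2 overlapped with both. Ggps1, which makes geranylgeranyl diphosphate for prenylation, was low throughout at 2.32 to 5.77 FPKM and shares exon bases with Arid4b on the opposite strand.

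**Figure D2:**
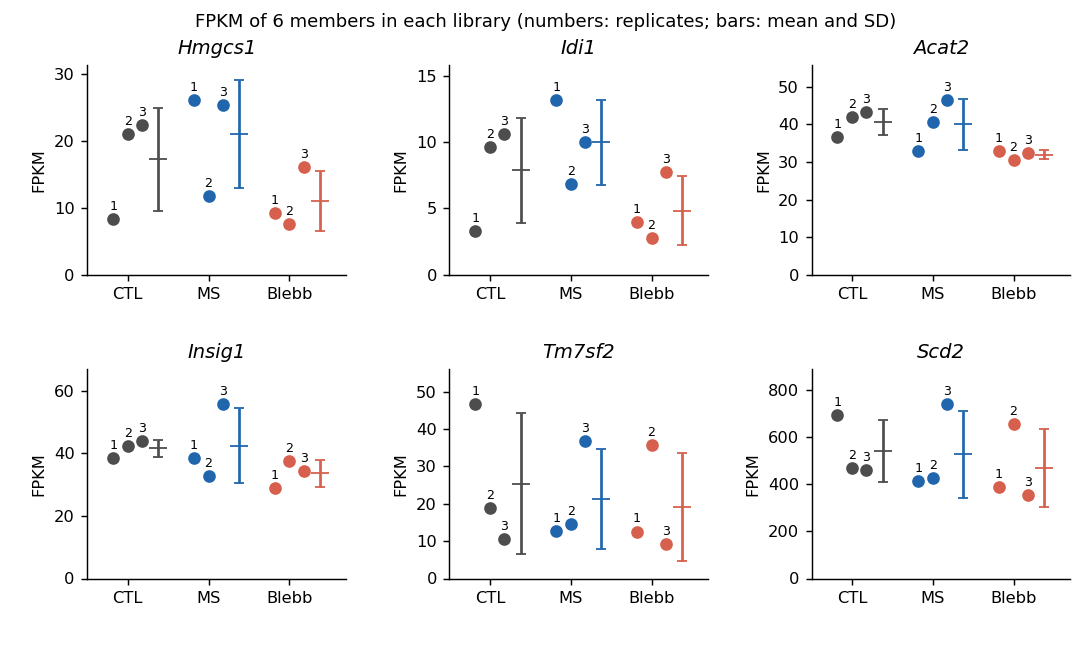
FPKM (vertical axes from 0) of 6 members in each library, by group; points carry the replicate number, and the bars give the mean and SD of 3 libraries. Hmgcs1 and Idi1 are lowest in CTL 1, Blebb 1 and Blebb 2, Acat2 and Insig1 are lower in all Blebb libraries than in all CTL libraries, and Tm7sf2 and Scd2 are highest in CTL 1, MS 3 and Blebb 2.

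The sterol branch, from squalene to cholesterol, differed more between libraries of a group than between groups. Differences between groups made up 2.02% (Ebp) to 46.2% (Hsd17b7) of a gene's variance. For Hmgcs1 and Idi1 of the mevalonate branch this share was 32.8% and 36.8%. Tm7sf2, a sterol reductase, was 46.8, 18.9 and 10.5 FPKM in CTL, 12.6, 14.7 and 36.7 in MS and 12.6, 35.9 and 9.30 in Blebb. Each group thus held 1 library far above its other libraries. Its SD over the libraries was 0.83 on the log2 scale, at percentile 98.2 of all genes tested. Tm7sf2 shares exon bases on the same strand with Vps51, whose level ranged from 18.0 to 24.2 FPKM and was not high in those 3 libraries together.

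Msmo1, Nsdhl and Cyp51 act in the removal of methyl groups from lanosterol. Msmo1 was 112, 77.3 and 66.8 FPKM in CTL, 77.7, 68.0 and 132 in MS and 64.6, 94.2 and 60.1 in Blebb. Nsdhl was 45.1, 34.9 and 30.5 FPKM in CTL, 29.2, 29.3 and 54.1 in MS and 23.6, 38.4 and 22.3 in Blebb, with a log2 fold change of Blebb against CTL of -0.40 (SE 0.29, adjusted p = 1.00 in limma). Cyp51, the demethylase that opens this stretch, was 70.1, 55.7 and 54.7 FPKM in CTL, 47.7, 49.6 and 88.7 in MS and 41.9, 53.2 and 41.7 in Blebb. The Blebb libraries of Cyp51 lay below all CTL libraries but not below all MS libraries. MS 3 was the highest library for all 3 genes.

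Hsd17b7, a ketosteroid reductase of the same stretch, had CTL values of 7.06, 7.08 and 7.24 FPKM, MS values of 7.22, 5.20 and 9.96 and Blebb values of 4.93, 4.58 and 6.02. Its CTL libraries differed little and all lay above Blebb (means 7.13 ± 0.103 and 5.18 ± 0.748 FPKM, SD, n = 3). Sqle, squalene epoxidase, ranged from 38.6 to 79.1 FPKM and was highest in MS 3. Lss, which cyclises the epoxide to lanosterol, ranged from 14.7 to 22.7 FPKM and Fdft1, squalene synthase, from 28.3 to 50.4 FPKM. Each of these 3 genes had overlapping groups. Fdft1 and Cyp51 share exon bases with Ctsb and Akap9 on the opposite strand.

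Late steps gave a mixed picture. Ebp, a sterol isomerase, was 57.9, 55.3 and 52.3 FPKM in CTL, 52.4, 57.7 and 51.8 in MS and 61.9, 61.5 and 45.2 in Blebb, and was with Scap the member above 0 in Blebb against CTL (0.014, SE 0.14, and -0.0070 after quantile normalization). Sc5d, a sterol desaturase, was 5.82, 7.17 and 7.93 FPKM in CTL, 8.62, 5.55 and 9.97 in MS and 4.83, 5.01 and 6.65 in Blebb, with 0.16 (SE 0.22) for MS against CTL, which became -0.0084 after correction for GC content. Dhcr7, which makes cholesterol in the last step of its branch, was 77.2, 62.7 and 53.0 FPKM in CTL, 41.4, 59.9 and 70.1 in MS and 60.5, 74.4 and 41.2 in Blebb, with -0.18 (SE 0.26) for MS against CTL. None of these differences exceeded the spread between replicates.

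Stard4, which carries cholesterol between membranes, was 3.88, 6.99 and 7.60 FPKM in CTL, 7.17, 4.73 and 7.35 in MS and 3.54, 3.46 and 6.33 in Blebb. Its log2 fold change of Blebb against MS was -0.47 (SE 0.28, adjusted p = 0.897 in limma), with the same libraries low as in Hmgcs1. Lpin1, a phosphatidate phosphatase that feeds glycerolipid synthesis, ranged from 3.28 to 5.50 FPKM and was highest in CTL 1, MS 3 and Blebb 2.

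Among the fatty acid synthesis genes, Acly, which cleaves citrate to acetyl-CoA, was 107, 117 and 115 FPKM in CTL, 95.0, 97.4 and 128 in MS and 102, 99.8 and 91.5 in Blebb. The Blebb libraries lay below all CTL libraries, with means of 97.9 ± 5.74 and 113 ± 4.85 FPKM (SD, n = 3), while MS overlapped with both. Fasn, fatty acid synthase, was 126, 179 and 163 FPKM in CTL, 119, 162 and 142 in MS and 167, 131 and 128 in Blebb, with overlapping groups. Me1, malic enzyme, a source of NADPH for this synthesis, was 35.3, 55.4 and 52.3 FPKM in CTL, 55.2, 48.8 and 43.5 in MS and 49.0, 41.0 and 50.6 in Blebb (-0.0031, SE 0.18, for Blebb against CTL, and 0.029 with median-of-ratios scaling). Acaca, acetyl-CoA carboxylase, ranged from 10.7 to 22.9 FPKM and Acss2, acetyl-CoA synthetase, from 9.20 to 21.3 FPKM. Acss2 shares exon bases with Gss and Ggt7 on the opposite strand.

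Scd1, Scd2 and Fads1 had the same 3 highest libraries as Tm7sf2, while Fads2 did not. Scd1, stearoyl-CoA desaturase, was 70.5, 42.1 and 37.6 FPKM in CTL, 30.9, 29.4 and 74.2 in MS and 30.8, 59.1 and 28.9 in Blebb. Scd2, its close paralog, was 692, 469 and 460 FPKM in CTL, 413, 426 and 741 in MS and 388, 657 and 356 in Blebb. Reads that match both paralogs could have been split between them, which was not tested, so their separate levels are uncertain to that extent. The log2 fold change of Scd1 for MS against CTL was -0.24 (SE 0.41), and it was 0.035 without CTL 1 and -0.66 without MS 3. Fads1 and Fads2, the desaturases of polyunsaturated fatty acids, ranged from 50.5 to 89.0 and from 78.7 to 125 FPKM. Elovl6, which elongates palmitate, was 0.346, 2.57 and 3.19 FPKM in CTL, 3.77, 1.56 and 1.04 in MS and 1.06, 0.241 and 1.91 in Blebb. It was lowest in Blebb 2 and CTL 1, where Scd1 and Scd2 were high.

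**Figure D3:**
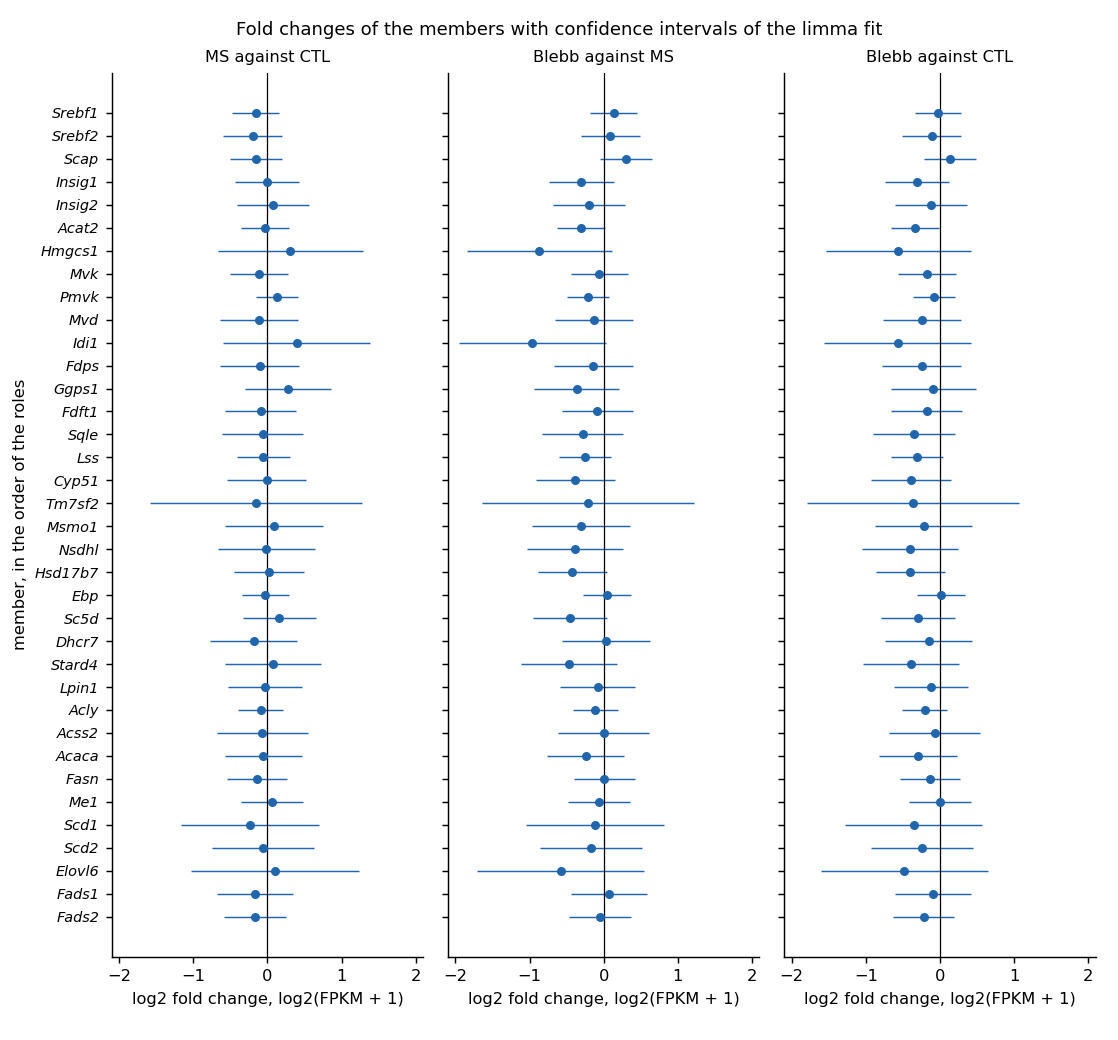
Log2 fold change on the log2(FPKM + 1) scale (horizontal axes) of the 36 members (rows, by role) with 95% intervals of the limma fit, for MS against CTL, Blebb against MS and Blebb against CTL. Points spread about 0 in the first panel, while 34 of 36 lie below 0 in the last, where the interval of Acat2 alone ends below 0.

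For MS against CTL, of 36 members 25 had a log2 fold change below 0 (69.4%), against 50.5% of all genes tested, and their median was -0.054 against -0.0018 for all genes. No member had an unadjusted p under 0.05 (0.158% of all genes did), and for no member were the groups free of overlap (0.524% of all genes were higher in every MS library than in every CTL library, and 2.64% lower). The count below 0 depended on single libraries. It was 15 of 36 without MS 1, where 63.1% of all genes were below 0, and 29 of 36 without MS 3, where 50.4% were. After correction for GC content it was 32 of 36, against 53.1% of all genes. The median was -0.19 without MS 3 and turned to 0.024 without MS 1 and 0.043 without MS 2, and it was -0.0078 without CTL 1 and -0.083 without CTL 3. Without CTL 1, MS 3 and Blebb 2 together, an alternative chosen after the values were seen, 32 of 36 were below 0 with a median of -0.15, where 61.5% of all genes were below 0 with a median of -0.046, and 1 member (Scd1) had an unadjusted p under 0.05, as did 0.561% of all genes. The mevalonate genes split evenly, with 4 of 8 below 0, whereas 8 of 11 sterol genes, 4 of 5 fatty acid synthesis genes, 4 of 5 desaturation and elongation genes and 4 of 5 regulators were below 0.

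For Blebb against MS, 29 of 36 members were below 0 (80.6%), against 51.0% of all genes, with a median of -0.18 against -0.0059. No member had an unadjusted p under 0.05 in limma, where 1.25% of all genes did. Acat2 and Pmvk, 2 of 36, were lower in every Blebb library than in every MS library, as were 0.683% of all genes, and no member was higher in this way (3.05% of all genes). All 8 mevalonate genes and 9 of 11 sterol genes were below 0, with medians of -0.26 and -0.29, whereas 3 of 5 regulators were above 0. Without MS 3 the count fell to 18 of 36 and the median moved to 0.0035. The count was 20 of 36 without Blebb 3. Without CTL 1, MS 3 and Blebb 2 together, chosen after the values were seen, the count was 29 of 36. The members' median was then -0.15, where 52.9% of all genes were below 0 with a median of -0.013. The shift of the members in this comparison thus depended on which libraries were kept. The median was -0.28 without MS 2, -0.30 without Blebb 2 and -0.093 without Blebb 3. The count with an unadjusted p under 0.05 was 6 without Blebb 3, where 9.27% of all genes had one, 5 without MS 2 (5.94% of all genes), 2 without CTL 1 (1.23%) and 2 after correction for GC content (Idi1 and Pmvk, where 1.37% of all genes had one).

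For Blebb against CTL, 34 of 36 members were below 0 (94.4%), against 54.0% of all genes, with a median of -0.23 against -0.013; Scap and Ebp were above 0. An unadjusted p under 0.05 was reached by 1 member, Acat2, against 0.089% of all genes. Insig1, Acat2, Cyp51, Hsd17b7 and Acly, 5 of 36, were lower in every Blebb library than in every CTL library, as were 1.15% of all genes, and no member was higher in this way (0.93% of all genes). The median was -0.25 for the mevalonate genes, -0.31 for the sterol genes and -0.13 for the fatty acid synthesis genes. Leaving out Blebb 3 gave 25 of 36 below 0 and a median of -0.092, where 50.6% of all genes were below 0. The count with an unadjusted p under 0.05 was 6 without CTL 1, where 0.405% of all genes had one, 4 without MS 3 (0.168%) and 0 without CTL 2, CTL 3, Blebb 1 or Blebb 3, and it was also 0 after correction for GC content, where Acat2 was at -0.31 (SE 0.14). Without CTL 1, MS 3 and Blebb 2 together, 35 of 36 members were below 0 with a median of -0.29, where 64.6% of all genes were below 0 with a median of -0.046. With those libraries left out, 8 members had an unadjusted p under 0.05, against 0.404% of all genes, and none of them passed after adjustment.

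Single libraries held many of the members' extreme values. MS 3 held the highest value of 16 of the 36 members, and 11.5% of all genes tested had their highest value there. Blebb 3 held the lowest value of 18 members and of 10.4% of all genes. CTL 2, CTL 3, MS 2 and MS 3 held the lowest value of 0 members, where 3.56%, 4.34%, 10.0% and 10.3% of all genes were lowest. The mean level of the 11 sterol genes, as log2(FPKM + 1) minus each gene's mean, was 0.31, 0.073 and -0.075 in CTL, -0.13, -0.14 and 0.49 in MS and -0.25, 0.11 and -0.39 in Blebb. That of the 8 mevalonate genes was -0.16, 0.21 and 0.14 in CTL, 0.18, -0.025 and 0.32 in MS and -0.25, -0.23 and -0.19 in Blebb. The mevalonate mean was thus below 0 in all 3 Blebb libraries, in CTL 1 and, at -0.025, in MS 2. Of the 8 genes, 7 were below their own mean in Blebb 1 and 5 in each of CTL 1, MS 2, Blebb 2 and Blebb 3. Within CTL 1, Hmgcs1, Idi1 and Ggps1 were lowest, while Fdps, Mvd and Mvk were above their mean. After correction for GC content the CTL 1 mean was -0.0068, the MS 2 mean was 0.037, and the Blebb means were -0.20, -0.12 and -0.24. In CTL 1, 9 of the 11 sterol genes were above their mean, and in Blebb 3 all 11 were below it.

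**Figure D4:**
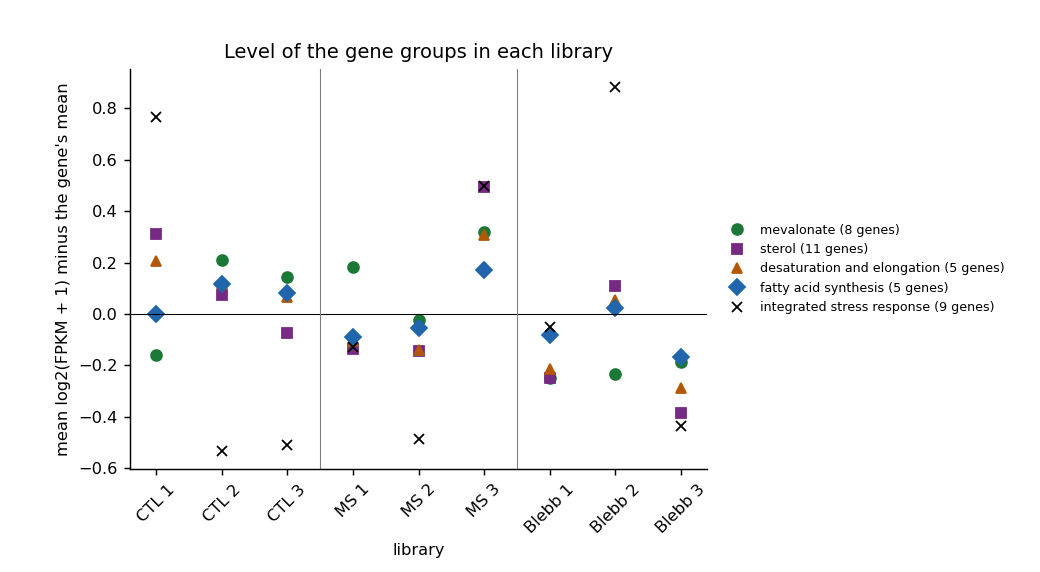
Mean of log2(FPKM + 1) minus each gene's mean (vertical axis) over the genes of 4 member groups and of the integrated stress response list, in each library (horizontal axis). The means of the stress response genes and of the sterol genes are high in CTL 1 and MS 3, that of the stress genes also in Blebb 2. The mean of the mevalonate genes is below 0 in CTL 1, in all 3 Blebb libraries and slightly in MS 2.

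A common order of libraries was shared by 12 members: Mvd, Fdps, Fdft1, Tm7sf2, Msmo1, Nsdhl, Dhcr7, Acss2, Scd1, Scd2, Fads1 and Lpin1 had their 3 highest values in CTL 1, MS 3 and Blebb 2 (33.3% of members, against 15.8% of all genes tested). This order was noticed in the values and is given as a description. Of 9 tested genes of the integrated stress response, the programme driven by the factor ATF4, 6 had the same 3 highest libraries (Atf4, Ddit3, Trib3, Chac1, Asns and Sesn2), while Atf3, Psat1 and Cebpb did not. Atf4 itself was 337, 126 and 132 FPKM in CTL, 143, 129 and 280 in MS and 174, 319 and 141 in Blebb. Trib3, a target of ATF4, was 153, 21.2 and 19.4 FPKM in CTL, 36.4, 22.0 and 103 in MS and 41.7, 183 and 23.7 in Blebb. The summed level of the stress list, of which 9 of 10 genes were tested and Vldlr was at 0, was 438 to 1150 FPKM in CTL, 443 to 917 in MS and 483 to 1180 in Blebb. All 9 tested stress genes had a log2 fold change above 0 in Blebb against CTL, where 34 of 36 members and 54.0% of all genes were below 0. Only that of Cebpb (0.36, SE 0.14) exceeded its SE, while Atf4 (0.16, SE 0.46), Trib3 (0.49, SE 0.96) and the rest did not. In Blebb against MS, 7 of the 9 stress genes were above 0. The part of the stress genes in the members' levels was not tested.

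Another set, Hmgcs1, Idi1, Ggps1 and Stard4, had its 3 lowest values in CTL 1, Blebb 1 and Blebb 2 (11.1% of members against 16.03% of all genes). Me1 and Elovl6 were lowest in CTL 1, MS 3 and Blebb 2 (5.56% against 16.1%). Transcript GC content was low in the set of Hmgcs1, Idi1, Ggps1 and Stard4. The members' longest transcripts held 40.1% to 59.1% GC, with a median of 49.3% against 49.9% for all genes. The set itself was among the lowest, with 40.1% for Ggps1, 41.9% for Idi1, 43.1% for Hmgcs1 and 43.9% for Stard4. Sc5d at 42.9% and Hsd17b7 at 43.9% were about as GC-poor, but their 3 lowest libraries were Blebb 1, Blebb 2 and MS 2. Across genes, which are not independent replicates, the correlation between GC content and a library's deviation from the gene mean was 0.45 in CTL 1, 0.55 in Blebb 1 and 0.54 in Blebb 2, so that GC-poor genes read low there. It was -0.18 and -0.42 in CTL 2 and CTL 3, -0.64, 0.057 and -0.16 in MS 1, MS 2 and MS 3, and -0.54 in Blebb 3.

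With each library's GC trend removed by a loess curve, Blebb against MS was -0.66 for Idi1 (SE 0.23, adjusted p = 0.999 in limma), -0.59 for Hmgcs1 (SE 0.27) and -0.21 for Stard4 (SE 0.15). Pmvk was at -0.34 (SE 0.099, adjusted p = 0.999 in limma), and Ggps1 moved to -0.025. The counts of members below 0 were then 32 of 36 for MS against CTL, 30 of 36 for Blebb against MS and 32 of 36 for Blebb against CTL, where all genes stood at 53.1%, 46.7% and 48.4%.

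**Figure D5:**
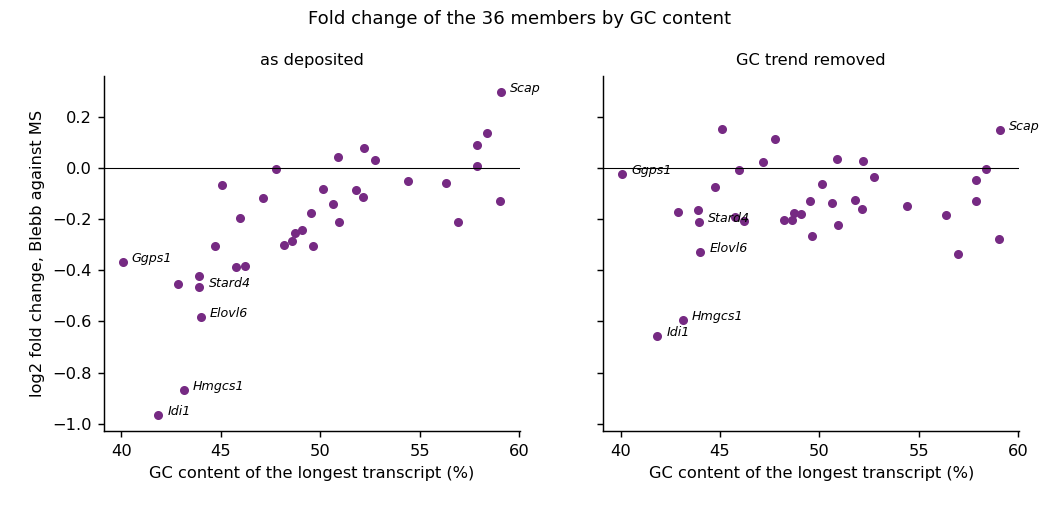
Log2 fold change of Blebb against MS (vertical axis, log2(FPKM + 1) scale) of the 36 members by the GC content of the longest transcript (horizontal axis, percent), with values as deposited on the left and after removal of each library's GC trend on the right. The slope from Idi1 and Hmgcs1 up to Scap on the left is flatter on the right, where Idi1 at -0.66 and Hmgcs1 at -0.59 stay lowest.

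The members' spread was measured against that of all genes. The median SD over the 9 libraries was 0.30 for members and 0.23 for all genes on the log2 scale, led by Tm7sf2 at 0.83, Idi1 at 0.69, Elovl6 at 0.68, Hmgcs1 at 0.67 and Scd1 at 0.54. Differences between groups made up a median of 17.7% of the variance of a member and 12.7% of that of a gene at large, with 57.4% for Acat2 as the highest of the members. Means of 3 libraries differ to some extent without any effect of treatment, and these shares were not tested against that.

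Other genes of sterol and fatty acid handling were taken from a list of 40, of which 37 were tested. Log2 fold changes below 0 were seen for 27 of 37 (73.0%) in MS against CTL, against 50.5% of all genes tested. In Blebb against MS it was 20 of 37 (54.1%), against 51.0% of all genes, and in Blebb against CTL 26 of 37 (70.3%), against 54.0%. The members' shares in these comparisons were 69.4%, 80.6% and 94.4%. Of the 37 genes, 0 passed the adjusted threshold in limma. The single gene with an unadjusted p under 0.05 was Acsl3, which activates long-chain fatty acids, in Blebb against MS (-0.87, SE 0.33, adjusted p = 0.897 in limma). In that comparison 1.25% of all genes had an unadjusted p under 0.05. Acsl3 was 7.60, 14.3 and 13.7 FPKM in CTL, 18.4, 9.64 and 17.8 in MS and 6.76, 5.66 and 11.3 in Blebb. As for Hmgcs1, its 3 lowest libraries were CTL 1, Blebb 1 and Blebb 2. Agpat2, an acyltransferase of glycerolipid synthesis, was the gene lower in every MS library (32.5, 37.4 and 33.6 FPKM) than in every CTL library (42.0, 40.5 and 38.0). This was 1 of 37, a share near the 2.64% of all genes. Abcg1, a sterol exporter, was listed at 0 in all libraries.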

How the data were processed

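RNA was extracted with TRIzol and libraries were made with a SMARTER mRNA-Seq kit, per the labels. The authors deposited FPKM values per gene for each library; the submitters' notes name GRCm38 and mm10, and the aligner, the counter and the annotation are not given in the sources used here. FPKM keep no counts, no step of single reads was found in the low values (at most 1.69% of low ratios fell in a bin of 0.02 log2), and the depth is unknown. Members and lists were chosen with earlier results of these data known.

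Values were tested as log2(FPKM + 1) with limma 3.58.1 in R 4.3.3, for the 10109 genes whose mean reached 1 FPKM, in a fit of all 3 groups with an empirical Bayes mean-variance trend, and p-values were adjusted over all genes. The fit was tested on simulated data in which each gene varied independently, unlike the libraries here, which shared a main component. Fold changes were printed for the 3 highest and 3 lowest members of a comparison with a mean of at least 5 FPKM, for members with an unadjusted p under 0.05 and for Srebf1, Srebf2 and Insig1; other members were singled out after their values were seen. Promoter windows came from RefSeq (GRCm38.p6), exon overlaps and GC content from GENCODE M21; 95.6% of the tested genes (9663) had a GC value. Alternatives were other pseudocounts (0.1) and filters (none, 5 FPKM), scalings, fits, removal of the GC trend (loess span 0.5), a replicate block and leaving out libraries.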

Additional observations from a re-analysis of the deposited data

How the results depend on the processing

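The depth behind these FPKM values is unknown, and 3 libraries a group limit what the test can show. No member passed the adjusted threshold under any alternative. Over all genes the adjusted count was 0, with a range of 0 to 1 when each library was left out in MS against CTL and in Blebb against MS (1 without MS 2) and 0 throughout in Blebb against CTL. Of 25 named fold changes, 13 kept their sign in every alternative. No gene passed with the replicate block, and members with an unadjusted p under 0.05 numbered 0, 1 and 1 in MS against CTL, Blebb against MS and Blebb against CTL (14, 119 and 10 of all 10109 genes). Deviations of same-numbered libraries correlated from -0.78 (CTL 1 with MS 1) to 0.84 (CTL 3 with Blebb 3). These values cannot show whether same-numbered libraries were handled together, since the first principal component, which cut across the groups, held 70.4% of the variance.

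All signs that turned belonged to folds smaller than their SE, and the cause was not tested. Removing the GC trend, alone or together with the replicate block, gave the following values: Sc5d was -0.0084 in MS against CTL, Srebf2 -0.046 and Srebf1 -0.0048 in Blebb against MS, and Me1 0.10 in Blebb against CTL. With median-of-ratios factors, Me1 was 0.029 and Srebf1 0.0064 in Blebb against CTL, and with quantile normalization Ebp was -0.0070. Without CTL 1, MS 3 and Blebb 2, chosen after seeing the data, Sc5d was -0.11, Hmgcs1 -0.29 and Idi1 -0.081 in MS against CTL, and Ebp -0.023 in Blebb against CTL.

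Leaving out each library gave ranges that crossed 0. In MS against CTL these were -0.66 to 0.035 for Scd1, -0.35 to 0.028 for Dhcr7, -0.12 to 0.66 for Hmgcs1, -0.060 to 0.66 for Idi1 and -0.22 to 0.15 for Insig1. In Blebb against MS the range was -0.020 to 0.27 for Srebf2. In Blebb against CTL they were -0.20 to 0.12 for Me1, -0.062 to 0.16 for Ebp, -0.11 to 0.050 for Srebf1 and -0.22 to 0.071 for Srebf2. The unadjusted count over all genes without a minimum level was 183, 382 and 183 in the 3 comparisons, against 16, 126 and 9.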
